A study of Mus musculus with 12 samples.

Results

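The Clec genes encode proteins of the C-type lectin domain superfamily, and all 33 autosomal protein-coding genes of the RefSeq annotation whose symbol is Clec followed by a number were examined, of 20661 autosomal protein-coding genes in all. Many of these proteins are receptors on myeloid cells that bind glycans, lipids or ligands exposed by dying cells. Activating members such as Dectin-1 (Clec7a), Dectin-2 (Clec4n) and Mincle (Clec4e) signal through the kinase Syk and the adaptor Card9, directly or through the ITAM-bearing adaptors FcR gamma (Fcer1g) and DAP12 (Tyrobp). Inhibitory members such as DCIR (Clec4a2) and MICL (Clec12a) carry a tyrosine motif that recruits phosphatases. Despite its symbol, Clec16a is not known as a lectin receptor but as a regulator of endosomal traffic and mitophagy.

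Chromatin accessibility had been profiled by ATAC-seq, which inserts sequencing adapters into open DNA with a transposase, in mouse bone marrow-derived macrophages (BMDMs) with (WT) or without (KO) Baf60a, a subunit of the SWI/SNF remodelling complex encoded by Smarcd1. Cells of each genotype were untreated or received oxidised LDL (oxLDL, 50 µg/ml, 48 h), a modified lipoprotein that macrophages take up. The Omni-ATAC cohort has 1 library for each of the 4 combinations, and its labels give neither the ApoE status nor how the KO was made. In the ApoE KO cohort every library, WT included, lacks ApoE, all cells carry the floxed allele Baf60af/f, KO cells are Lyz2 Cre+ (a recombinase driven from a myeloid gene) and WT cells Lyz2 Cre-, and each combination has 2 libraries from cryopreserved cells prepared with a Nextera kit. No source used here gives the age of the animals. The labels do not say whether the 2 libraries of a group stem from different animals or cultures. A p-value here therefore reflects the spread among these libraries, and that spread may be technical.

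Each library is represented by 1 list of peaks. Lists held 82177 to 141441 peaks in the Omni-ATAC cohort and 24397 to 44524 in the ApoE KO cohort, and read depth is unknown. Unless deposited lists are named, each list was reduced to its highest-scoring autosomal peaks, 80394 per library in the first and 24397 in the second, so that libraries of a cohort are compared at equal list length. Ranks are not comparable between cohorts, and cohort, protocol, cryopreservation and any difference in ApoE status cannot be told apart. A boundary peak has its summit (its centre in the Omni-ATAC lists, which give no summit) within 1 kb of the start or end of a gene. Of 8 macrophage markers, 8 had a boundary peak in each Omni-ATAC library and 6 to 8 in each ApoE KO library. B cell markers (4 genes) had 0 to 1 and 0, with 3 and 4 in the longer deposited Omni-ATAC untreated lists. Dendritic cell markers (6 genes) had 3 and 1 to 2, and neutrophil markers (5 genes) had 1 and 1. Smarcd1 had a boundary peak in all 12 deposited lists, KO included. At equal list length replicate 1 of each ApoE KO group had none, in WT and KO alike. A peak at either end of a gene does not tell whether the part between is intact, so these calls do not check the deletion. Both WT untreated libraries of the ApoE KO cohort and KO oxLDL replicate 1 carry a sequencing-lane mark, L001, that the other 5 libraries of that cohort lack.

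RefSeq (GRCm38.p6, the assembly of mm10) gave the promoter, 250 bases before to 50 after the start, for 26 of the 33 genes. The 250 upstream bases of 5 of them are printed here 5′ to 3′ because they run from promoters called in all 12 lists to one called in few of them. A further 13 of the 26 (50%, beside 38.2% of all promoters) overlapped no peak in any deposited list and are not printed. For Clec4a1, Clec4e and Clec12a the 300-base promoter overlapped a peak in all 12 deposited lists. For Clec7a it did in 4 of 4 Omni-ATAC and 7 of 8 ApoE KO lists, and for Clec4d, the Mincle partner, in 3 and 1. Capitals mark matches to the motifs searched, given on the strand of the gene. They are an ETS-IRF composite in Clec4a1 and Clec7a, a C/EBP motif then a TATA box in Clec4e, and an AP-1 then a C/EBP motif in Clec12a. No motif searched matched in the Clec4d promoter.
Clec4a1, chr6:122921598-122921847, plus strand: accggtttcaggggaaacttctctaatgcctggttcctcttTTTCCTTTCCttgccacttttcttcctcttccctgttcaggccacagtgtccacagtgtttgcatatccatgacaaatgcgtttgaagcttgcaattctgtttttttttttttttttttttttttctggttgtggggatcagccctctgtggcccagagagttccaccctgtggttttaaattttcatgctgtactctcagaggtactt
Clec4e, chr6:123289872-123290121, minus strand: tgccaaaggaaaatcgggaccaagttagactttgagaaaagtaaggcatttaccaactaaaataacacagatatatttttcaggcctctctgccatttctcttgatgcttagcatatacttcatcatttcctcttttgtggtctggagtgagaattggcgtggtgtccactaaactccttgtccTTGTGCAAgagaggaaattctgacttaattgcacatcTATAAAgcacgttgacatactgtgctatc
Clec12a, chr6:129349994-129350243, plus strand: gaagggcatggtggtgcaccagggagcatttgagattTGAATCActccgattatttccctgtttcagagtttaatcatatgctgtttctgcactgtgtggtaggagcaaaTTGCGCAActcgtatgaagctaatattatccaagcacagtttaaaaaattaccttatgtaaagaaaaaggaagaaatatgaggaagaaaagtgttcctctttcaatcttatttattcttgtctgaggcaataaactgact
Clec7a, chr6:129472780-129473029, minus strand: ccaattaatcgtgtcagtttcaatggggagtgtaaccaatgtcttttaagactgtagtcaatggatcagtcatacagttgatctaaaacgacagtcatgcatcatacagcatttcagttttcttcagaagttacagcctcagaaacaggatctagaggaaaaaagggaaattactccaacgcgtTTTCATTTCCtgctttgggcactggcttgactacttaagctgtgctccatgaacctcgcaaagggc
Clec4d, chr6:123261857-123262106, plus strand: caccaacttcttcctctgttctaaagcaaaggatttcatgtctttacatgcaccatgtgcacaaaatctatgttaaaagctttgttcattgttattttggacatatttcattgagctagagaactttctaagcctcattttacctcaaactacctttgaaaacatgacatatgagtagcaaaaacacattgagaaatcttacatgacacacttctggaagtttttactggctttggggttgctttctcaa

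The motifs were searched on both strands and are letter matches only, not sites of binding. Among the 26 Clec promoters, 6 (23.1%) held the AP-1 motif TGANTCA, against 7.17% of 16456 promoters of the same length. The ETS-IRF composite, an ETS core and an interferon-factor core with 2 bases between them, was in 3 (11.5%) against 2.69% of all promoters. The C/EBP motif TTGCNNAA was in 5 of the Clec promoters (19.2%) and in 10.3% of all. The TATA box, TATAAA, was in 8 (30.8%) against 13.5% of all promoters of that length. The NF-kB motif GGGNNTTCC was in 1 Clec promoter (3.85%) and in 6.39% of all. The PU.1 motif GAGGAAGT, whose core can overlap the ETS-IRF composite, was in 0 against 3.23%. Clec promoters were poor in CG dinucleotides, with a median of 4 against 14 over all promoters, and 21 of 26 (80.8%) had at most 5 CG against 31.6%. Among promoters with so few CG, the AP-1 motif was in 6 of 21 Clec (28.6%) and 13.1% of all, and the ETS-IRF composite in 3 (14.3%) and 3.96%. There the C/EBP motif (19.0% and 16.5%) and the TATA box (33.3% and 27.8%) were closer to the shares of all promoters. The Clec promoters with the AP-1 motif include those of Clec2h, Clec2g and Clec2e, which are neighbouring paralogues. Clec2h and Clec2e have nearly the same bases around it, so the Clec shares do not rest on independent genes.

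Promoters with few CG were called less often. Over all 16456 promoters, 55.9% overlapped a peak in all 4 deposited Omni-ATAC lists, and among the 5203 with at most 5 CG only 10.2% did. The Clec promoters gave 12 of 26 (46.2%), and those with at most 5 CG gave 9 of 21 (42.9%). In all 8 ApoE KO lists the shares were 39.4% of all promoters and 3.46% of those with at most 5 CG, beside 6 of 26 (23.1%) and 4 of 21 (19.0%) for Clec promoters. The Clec share was thus above that of promoters with at most 5 CG and below that of all promoters, as counts without a test.

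More Clec genes had a boundary peak in the Omni-ATAC cohort, whose lists are longer. The counts below also ask for a call in 4 lists there and in 8 lists in the ApoE KO cohort. The cohorts are therefore not on a like measure, and each count is to be read beside the share of all genes. In the deposited lists, 20 of 33 Clec genes (60.6%) had a boundary peak in all 4 Omni-ATAC lists, beside 57.8% of all genes. Only 8 (24.2%) had one in all 8 ApoE KO lists, beside 39.8% of all genes. These 8 were Clec4a1, Clec4a2, Clec4a3, Clec4e, Clec12a, Clec2d, Clec10a and Clec16a, and they were the same 8 that had one in all 12 lists. Clec12b, Clec1a and Clec2l (9.09% of the family, beside 4.11% of all genes) had one in all 4 Omni-ATAC lists and in none of the ApoE KO lists. The 10 genes with none in any list (30.3%, beside 31.8% of all genes) were Clec4b2, Clec2e, Clec2f, Clec2g, Clec2m, Clec4f, Clec14a, Clec11a, Clec4g and Clec18a. The width of the window sets part of these counts. At equal list length 19 Clec genes (57.6%, beside 55.3% of all genes) had a boundary peak in all 4 Omni-ATAC libraries and 6 (18.2%, beside 36.4%) in all 8 ApoE KO libraries. With a 2 kb window they were 25 (75.8%, beside 61.9%) and 11 (33.3%, beside 40.2%), and the 5 genes added in the ApoE KO cohort were Clec4d, Clec9a, Clec2i, Clec5a and Clec11a. The Dectin-1 group had 6 of 6 genes in all 4 Omni-ATAC and 2 of 6 in all 8 ApoE KO libraries at 2 kb. Among the genes with no boundary peak are Clec4f, known from Kupffer cells of the liver, and Clec14a, known from endothelium. Other genes known from other cell types did have one. Clec1b and Clec9a each had one in 4 Omni-ATAC and 1 ApoE KO deposited lists, and Clec3a in 3 and 1.

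**Figure D1:**
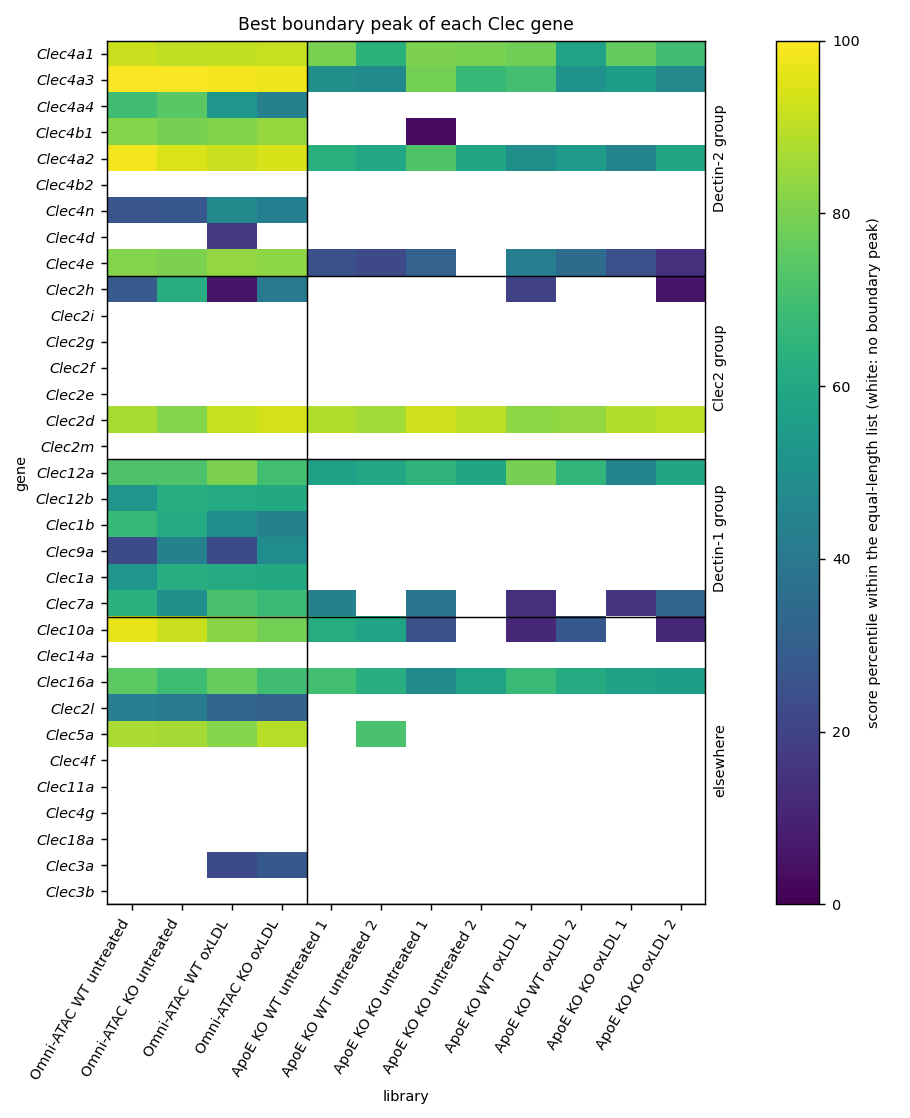
Score percentile of the best boundary peak of each of the 33 Clec genes (vertical axis) in each of 12 libraries (horizontal axis) at equal list length, where white means no boundary peak and lines separate the cohorts and the chromosome 6 groups. Clec4a1, Clec4a3, Clec4a2, Clec2d, Clec12a and Clec16a are filled in all 12 columns, and most other filled cells are in the 4 Omni-ATAC columns.

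On chromosome 6 lie 25 of the 33 genes, and 22 of these form 3 neighbouring groups. The Dectin-2 group holds 9 genes (Clec4a1, Clec4a3, Clec4a4, Clec4b1, Clec4a2, Clec4b2, Clec4n, Clec4d, Clec4e), the Clec2 group holds 7 (Clec2h, Clec2i, Clec2g, Clec2f, Clec2e, Clec2d, Clec2m), and the Dectin-1 group next to it holds 6 (Clec12a, Clec12b, Clec1b, Clec9a, Clec1a, Clec7a). In all 4 deposited Omni-ATAC lists, 8 of 9 Dectin-2, 6 of 6 Dectin-1 and 2 of 7 Clec2 genes had a boundary peak. In all 8 ApoE KO lists the counts were 4 of 9, 1 of 6 and 1 of 7. The Dectin-1 group, with a boundary peak at every gene in the Omni-ATAC cohort, thus had the same count as the Clec2 group in the other cohort. A boundary peak can lie at either end of a gene and need not lie at its promoter. The promoters of Clec12b, Clec1b and Clec9a overlapped no peak in any deposited list. Those of Clec12a and Clec7a overlapped one in all 4 Omni-ATAC lists, and no promoter was available for Clec1a. The remaining 11 genes gave 4 and 2. Genes of a group are close paralogues that may share reads, and how the authors treated reads with several matches is not given in the sources used here.

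**Figure D2:**
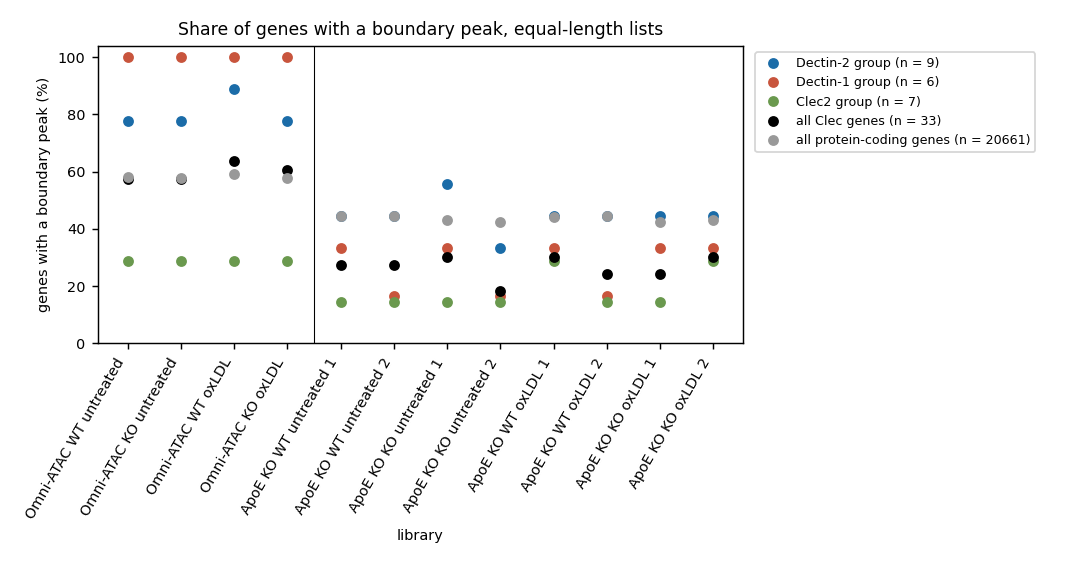
Percent of genes with a boundary peak (vertical axis) in each library (horizontal axis) at equal list length, for the 3 chromosome 6 groups, all 33 Clec genes and all 20661 genes. The Dectin-1 group is at 100% in the 4 Omni-ATAC libraries and at 16.7 to 33.3% in the 8 ApoE KO libraries, while the Clec2 group stays at 14.3 to 28.6% in all 12.

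The clusters, which are spans chosen around genes, were denser in peaks than their chromosome as a whole. With 20 kb added on each side, the Dectin-2 group held 7.35 to 9.31 peaks per 100 kb in Omni-ATAC libraries, against 3.00 to 3.05 over chromosome 6. In ApoE KO libraries it held 2.21 to 2.94 against 0.896 to 0.934. The Dectin-1 group held 12.9 to 14.7 and 3.07 to 4.91 peaks per 100 kb. The Clec2 group, few of whose genes had a boundary peak, held 7.33 to 8.03 and 2.40 to 3.52, in a span that also contains Cd69 and Klrb1 genes. The spans of the Clec2 and Dectin-1 groups overlap by their added windows. Counted per gene, the family did not differ from all genes. The median number of peaks within 20 kb was 4.25 in Omni-ATAC and 1.375 in ApoE KO libraries for both. It was 5.25 and 1.75 in the Dectin-2 group, 7.875 and 2.81 in the Dectin-1 group, and 3 and 0.875 in the Clec2 group.

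Peaks of all 12 deposited lists were also merged into regions where they overlapped, and 215 regions lay within 20 kb of a Clec gene. Of these, 27 were called in all 12 libraries, 131 in Omni-ATAC lists only and 3 in ApoE KO lists only. A further view is that 42 were called in all 4 Omni-ATAC lists and none of the 8 others. A region called in all 12 lay within 20 kb of 20 of the 33 genes. None of these counts was set beside all regions or all genes, and the Omni-ATAC lists are the longer ones. They therefore describe these regions only and show no trait of the family. Several regions called in all 12 are shared by neighbours. One (chr6:129406777-129407892) lies inside the Clec12b gene, between Clec1b and the start of Clec9a. Another (chr6:123265770-123267490) lies inside Clec4d and within 20 kb of Clec4n and Clec4e. Clec14a had no region within 20 kb in any list.

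**Figure D3:**
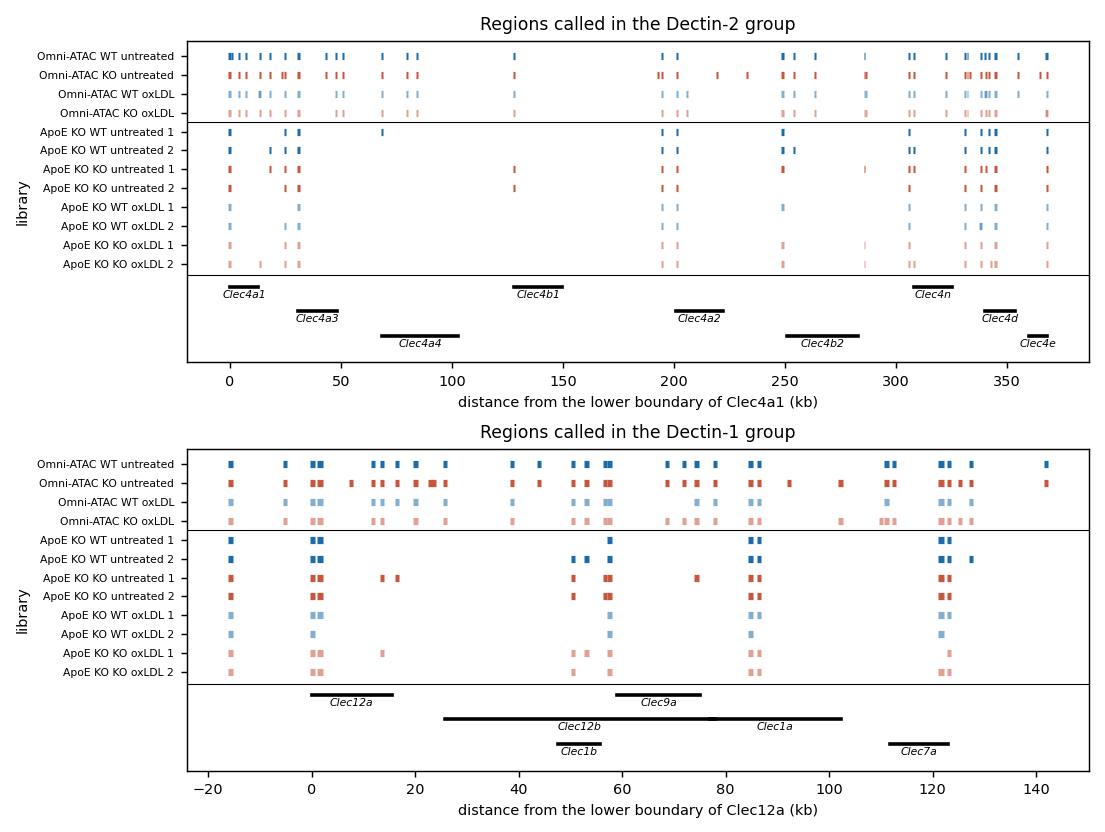
Regions called in each deposited list (vertical axis: library) along the Dectin-2 and Dectin-1 groups (horizontal axis: distance in kb from the lower boundary of Clec4a1 or Clec12a), with the genes drawn as bars. The columns that run through all 12 libraries include those at the starts of Clec4a1, Clec4a3, Clec4a2, Clec4e and Clec12a, and others lie between genes or inside Clec4d, Clec12b and Clec1a.

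Clec4a3 and Clec4a2 of the Dectin-2 group had the highest-ranked boundary peaks of the family in each Omni-ATAC library. Clec4a2, the inhibitory receptor DCIR, was at the 98.2 percentile in WT untreated, 94.5 in KO untreated, 91.9 in WT oxLDL and 93.8 in KO oxLDL. Its ApoE KO percentiles were 63.6 and 59.9 in WT untreated, 72.3 and 58.6 in KO untreated, 49.8 and 54.8 in WT oxLDL, and 45.3 and 59.0 in KO oxLDL. Each genotype overlapped the other in the ApoE KO cohort, and both WT oxLDL values lay below all 4 untreated values. Clec4a3 was at 97.3 to 99.5 in Omni-ATAC. The ApoE KO libraries were at 49.8 and 47.6 in WT untreated, 79.2 and 66.8 in KO untreated, 70.0 and 51.2 in WT oxLDL, and 55.5 and 46.9 in KO oxLDL. The KO untreated libraries thus lay above the WT untreated ones, and the oxLDL libraries of the genotypes overlapped. Clec4a1 was at 90.3 to 91.9 and at 57.7 to 80.2. Clec4a4 (43.6 to 74.3) and Clec4b1 (79.6 to 84.2) had a boundary peak in the 4 Omni-ATAC libraries, and among the ApoE KO libraries only Clec4b1 had one, in KO untreated replicate 1.

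The activating receptors at the other end of the group differed from gene to gene. Clec4e, the glycolipid receptor Mincle, was at 81.6 in WT untreated, 80.4 in KO untreated, 83.7 in WT oxLDL and 83.1 in KO oxLDL of the Omni-ATAC cohort. The ApoE KO libraries gave 24.9 and 22.2 in WT untreated, 31.4 and none in KO untreated, 42.6 and 35.2 in WT oxLDL, and 24.4 and 13.4 in KO oxLDL. Both WT oxLDL values lay above the other 6 at equal list length. In the deposited lists they were 49.2 and 35.2, and KO untreated replicate 1 was at 62.4. Clec4n, the mannan receptor Dectin-2, had a boundary peak at 26.8 and 27.3 in the untreated and 47.3 and 43.3 in the oxLDL Omni-ATAC libraries (WT before KO). The treatments did not overlap there at equal list length, with 1 library per group, and the share of all genes split this way was not counted. In the deposited lists they overlapped, at 44.7 and 57.7 untreated and 47.3 and 51.4 with oxLDL. At equal list length none of the 8 ApoE KO libraries had one, and 3 of the 8 deposited lists did. Clec4d, which pairs with Mincle at the cell surface, had one only in the WT oxLDL Omni-ATAC library (16.8), and in the deposited lists in 4 of 4 and 1 of 8.

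In the Dectin-1 group Clec12a, the inhibitory receptor MICL, was the gene with a boundary peak in all 12 libraries. It was at 72.2, 72.2, 80.1 and 69.9 in Omni-ATAC WT untreated, KO untreated, WT oxLDL and KO oxLDL. ApoE KO libraries gave 57.4 and 59.9 in WT untreated, 65.0 and 58.6 in KO untreated, 79.3 and 65.8 in WT oxLDL, and 45.3 and 59.0 in KO oxLDL. At equal list length the WT oxLDL libraries were the highest in both cohorts, but in the deposited lists they were not. There Omni-ATAC KO untreated was at 83.8 and WT oxLDL at 80.1. In the ApoE KO cohort WT oxLDL was at 81.7 and 65.8, beside 80.8 and 69.6 in KO untreated. Clec7a, the beta-glucan receptor Dectin-1, was at 63.9, 50.2, 71.4 and 68.3 in the same Omni-ATAC order. In the ApoE KO cohort it had a boundary peak in 5 of 8 libraries, at 43.7 in WT untreated, 38.3 in KO untreated, 13.7 in WT oxLDL, and 15.1 and 32.5 in KO oxLDL. No group of Clec7a stood apart from the others. Clec12b and Clec1a (melanin receptor) take their values from the same boundary peak where the genes meet, at 52.2 to 62.2. Clec1b, the platelet podoplanin receptor CLEC-2, was at 44.0 to 67.1, and Clec9a, the dead-cell receptor of cross-presenting dendritic cells, at 22.3 to 48.8. None of these 4 had a boundary peak in an ApoE KO library at equal list length.

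In the Clec2 group, which encodes ligands of the natural killer cell receptors of the Klrb1 family, Clec2d stood alone. Its percentiles were 81.5 to 93.5 in the Omni-ATAC and 83.1 to 92.6 in the ApoE KO libraries, and the authors' fold enrichment was 6.19 to 11.19 in the latter. ApoE KO values were 88.4 and 86.1 in WT untreated, 92.6 and 89.9 in KO untreated, 83.1 and 83.9 in WT oxLDL, and 88.4 and 90.1 in KO oxLDL. The KO libraries lay at 88.4 to 92.6 and the WT libraries at 83.1 to 88.4 there. In the Omni-ATAC cohort KO was lower than WT without oxLDL (81.5 against 87.1) and higher with it (93.5 against 91.3). Clec2h had a boundary peak in all 4 Omni-ATAC and 2 of 8 ApoE KO libraries. For Clec2i a region at its start (chr6:128888438-128889541) was called in all 12 libraries, but its peaks lay 1258 to 1463 bases from the boundary of the gene, outside the window.

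Among the genes elsewhere, Clec10a, the galactose-type lectin MGL1 of macrophages and dendritic cells, had the largest boundary differences of the family for genotype and for oxLDL, as given with their tests further on. Its boundary peak was at 96.5 in WT untreated, 91.8 in KO untreated, 82.3 in WT oxLDL and 79.2 in KO oxLDL of the Omni-ATAC cohort. The ApoE KO cohort gave 62.0 and 58.5 in WT untreated, 24.7 and none in KO untreated, 11.4 and 27.4 in WT oxLDL, and none and 11 in KO oxLDL. WT untreated was the highest group in both cohorts, and the other ApoE KO groups overlapped. The peak itself (region chr11:70166136-70167025, over the lower boundary of the gene) was in all 12 deposited lists. There the authors' fold enrichment was 4.44 and 5.46 in WT untreated, 5.06 and 2.81 in KO untreated, 3.04 and 3.17 in WT oxLDL, and 2.88 and 3.05 in KO oxLDL. The 2 libraries that set WT untreated apart in the ApoE KO cohort are also the ones with the L001 mark, so group and mark cannot be told apart there. KO oxLDL replicate 1, which carries the mark too, had no boundary peak.

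Clec16a, a long gene (199570 bases) with 21 to 23 peaks within 20 kb in Omni-ATAC libraries, had a boundary peak in all 12. It was at 74.7, 68.8, 76.7 and 69.5 in Omni-ATAC WT untreated, KO untreated, WT oxLDL and KO oxLDL. ApoE KO libraries were at 69.7 and 62.6 in WT untreated, 47.9 and 58.1 in KO untreated, 67.4 and 61.4 in WT oxLDL, and 57.3 and 56.1 in KO oxLDL. All 4 KO libraries lay below all 4 WT libraries in the ApoE KO cohort, and both did in the Omni-ATAC cohort. The share of all genes split this way was not counted, and over all genes tested KO was lower too (median -2.28 percentile points). In the deposited lists the genotypes overlapped, at 68.4 to 71.4 in KO and 61.4 to 76.8 in WT of the ApoE KO cohort. Clec5a, the DAP12-coupled receptor MDL-1, was at 81.8 to 89.4 in Omni-ATAC libraries and had a boundary peak in 1 ApoE KO library, WT untreated replicate 2 (71.3). These calls turn on the edge of the window. The region that holds the boundary peak (chr6:40573459-40574289, beside the 3′ end of the gene) was called in all 12 deposited lists, 988 to 992 bases from the end in the Omni-ATAC lists, by peak centres, and 1000 to 1084 bases from it in the ApoE KO lists, by summits. Its percentile in those ApoE KO lists was 54.8 to 92.2, so that peak was present in both cohorts and its calls cannot be read as a difference between them. With any overlap in place of the summit, Clec5a had a boundary peak in all 8 ApoE KO libraries at equal list length. A separate boundary region at the start of Clec5a (chr6:40585526-40586109) was called in 4 of 4 Omni-ATAC and 2 of 8 ApoE KO deposited lists, both of them KO untreated, and at equal list length in 4 and 0. A region inside the gene near the 3′ end (chr6:40575799-40576748) was also called in all 12.

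**Figure D4:**
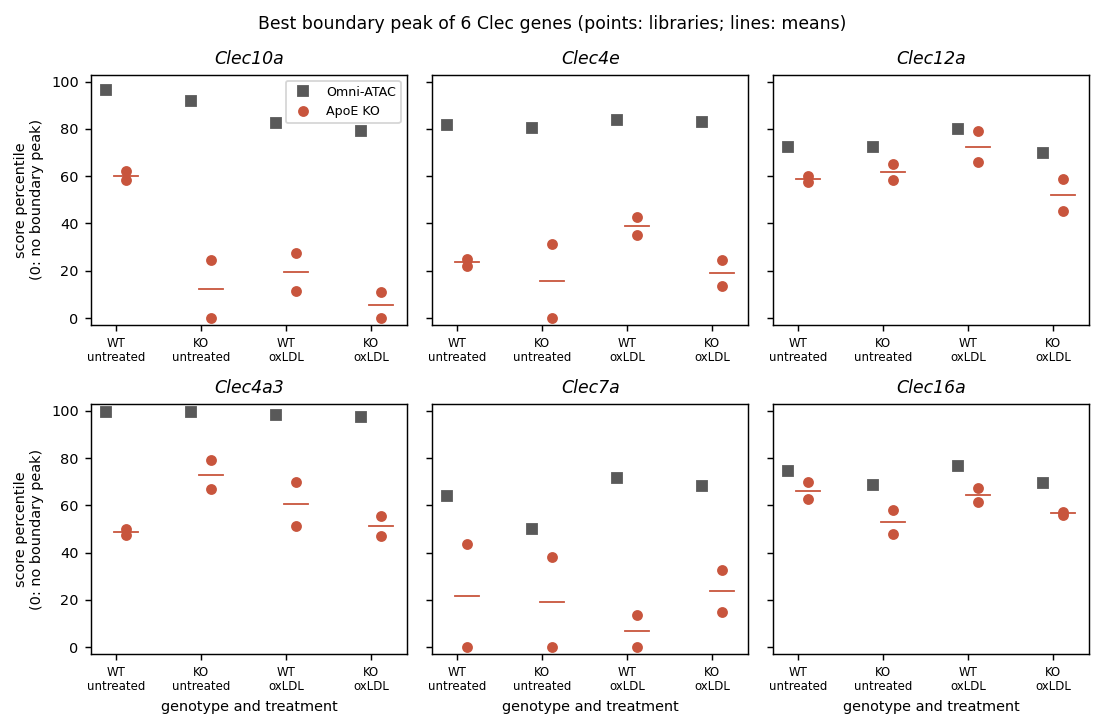
Score percentile of the best boundary peak (vertical axis, 0 where there is none) by genotype and treatment (horizontal axis) for Clec10a, Clec4e, Clec12a, Clec4a3, Clec7a and Clec16a, where points are libraries and lines are means of the 2 ApoE KO libraries. Clec10a is highest in WT untreated, and Clec16a is lower in KO than in WT at either treatment at equal list length, which the deposited lists do not show throughout.

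Genotype was tested with limma on the boundary percentile (0 where there was no peak), over all 12 libraries with cohort as a term. No Clec gene passed an adjusted p (Benjamini-Hochberg) of 0.05, and neither did any of the 12002 genes tested (0%). At an unadjusted p under 0.05 the fit had 134 genes higher and 1394 lower in KO, and this balance turned in the deposited lists, with 688 higher and 122 lower. Of the 33 Clec genes 19 were tested, with 10 above and 9 below 0 and a median of 0.61 percentile points, beside a median of -2.28 over all genes. In the deposited lists 15 of 21 were above 0 and 6 below. The 2 Clec genes with an unadjusted p under 0.05 were Clec16a (-9.13, SE 2.41, limma adjusted p = 0.297) and Clec10a (-21.9, SE 6.99, limma adjusted p = 0.310). In the ApoE KO cohort alone they were at -10.4 and -30.9, and without the L001 libraries at -7.61 and -8.85. The fit without L001 has no WT untreated library of the ApoE KO cohort, so it cannot tell group from mark. In the deposited lists the value of Clec16a was -0.98 and that of Clec10a -9.88, with the median of all genes at 1.37, above 0. Clec12a followed at -7.48 (SE 3.31). The members with the smallest p on the higher side were Clec9a (7.98, SE 4.05), Clec2h (9.13, SE 8.18) and Clec2d (2.68, SE 2.49). Clec9a had no boundary peak in any ApoE KO library at equal list length. Its value therefore comes from the Omni-ATAC cohort, with 1 library per group, and its ApoE KO values of 0 show no spread between replicates. In the ApoE KO cohort alone 7 of the 19 Clec genes were at 0.

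The oxLDL contrast called 0 of 12002 genes (0%) by boundary percentile, with 413 higher and 179 lower at an unadjusted p under 0.05. Of the 19 Clec genes 10 were above and 9 below 0, with a median of 0.12 beside 0.53 over all genes. Clec10a was lower by this measure (-20.4, SE 6.99, limma adjusted p = 0.795), as was Clec4a2 (-8.78, SE 3.43, limma adjusted p = 0.795), and neither passed. Without the L001 libraries, and so without WT untreated libraries of the ApoE KO cohort, they were at -7.34 and -7.11. Clec4a4 was at -7.90 (SE 4.14). On the other side stood Clec4e at 6.97 (SE 5.52), Clec4n at 6.10 (SE 3.20) and the peak shared by Clec12b and Clec1a at 1.29 (SE 1.77). Clec4a4, Clec4n and the shared peak had no call in any ApoE KO library at equal list length. Their values therefore come from the Omni-ATAC cohort, with 1 library per group. The deposited lists turned the balance here too, with 19 genes higher and 1263 lower at an unadjusted p under 0.05, a median of -3.68 over all genes, and 1 Clec gene above and 20 below 0. Clec4e (-0.73), Clec4n (-0.20) and the shared peak (-2.35) moved below 0 with the rest.

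The difference in oxLDL response between KO and WT also called 0 of 12002 genes (0%), with 270 higher and 164 lower at an unadjusted p under 0.05. Clec12a (-19.1, SE 6.63) and Clec4a3 (-22.8, SE 9.23) had the smallest p among Clec genes, both with a limma adjusted p of 0.997. The values per library at equal list length, given earlier, show the form. Clec12a was higher with oxLDL in WT and not in KO, and Clec4a3 was lower with oxLDL in KO of the ApoE KO cohort. In the deposited lists the interaction values were -12.1 for Clec12a and -11.0 for Clec4a3. There WT untreated (64.3 and 75.1) and WT oxLDL (81.7 and 65.8) overlapped for Clec12a in the ApoE KO cohort. Without the L001 libraries, and so without WT untreated libraries of the ApoE KO cohort, the values were -11.6 and -14.4. Clec10a (23.2, SE 14.0), Clec5a (26.6, SE 22.1) and Clec7a (16.7, SE 19.0) had the smallest p above 0, and the value of Clec5a includes the 1 ApoE KO summit at the edge of the window. Without the L001 libraries these values were 3.79, 4.64 and 19.4. The Clec12b and Clec1a peak was at -3.59 (SE 3.53), and that value too comes from the Omni-ATAC cohort alone.

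Peaks within 20 kb gave a second measure, the log2 of the number of peaks plus 0.5, for the genes that averaged at least 1 peak, 27 of them Clec genes and 15291 in all. The genotype contrast called 0 genes (0%), with 339 higher and 717 lower at an unadjusted p under 0.05. Among Clec genes 9 were above 0, 13 below and 5 at 0, and both medians were near 0 (0.00, beside -0.03 over all genes). The deposited lists had 2057 genes higher and 16 lower, a median of 0.18 over all genes, and 27 Clec genes above and 4 below 0. Clec4d (-0.21, SE 0.08), Clec4e (-0.35, SE 0.14), Clec1a (-0.39, SE 0.15) and Clec16a (0.13, SE 0.05) had the smallest p, all with a limma adjusted p of 0.704. Next above 0 were Clec2l (0.08, SE 0.05) and Clec1b (0.25, SE 0.18). In the deposited lists Clec1a was at 0.20 and Clec4e at 0.01, against their direction at equal list length. The interaction called 0 of 15291 genes (0%), with 304 higher and 209 lower at an unadjusted p under 0.05, and the lowest limma adjusted p of a Clec gene was 0.878. Its extremes by p were Clec11a (0.77, SE 0.37), Clec4b2 (1.22, SE 0.79) and Clec5a (0.25, SE 0.18) above 0, and Clec3b (-0.22, SE 0.16), Clec4a2 (-0.49, SE 0.39) and Clec1a (-0.34, SE 0.30) below.

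With oxLDL the neighbourhood of Clec4d had the smallest p of the family (0.31, SE 0.08, limma adjusted p = 0.693), in a contrast that called 1 of 15291 genes (0.00654%), which is no Clec gene. The Omni-ATAC libraries had 8 peaks within 20 kb of Clec4d in WT untreated, 7 in KO untreated, 11 in WT oxLDL and 8 in KO oxLDL. Those of the ApoE KO cohort had 4 and 4 in WT untreated, 4 and 3 in KO untreated, 5 and 5 in WT oxLDL, and 5 and 4 in KO oxLDL. The treatments met at 4 peaks in the ApoE KO cohort, and 3 of 4 oxLDL libraries had 5. The fifth peak was not at one place. In WT oxLDL replicate 1 the region inside Clec4d (chr6:123265770-123267490) held 2 peaks in place of 1, in WT oxLDL replicate 2 a region upstream (chr6:123259095-123259304) had a peak, and in KO oxLDL replicate 1 a region next to it (chr6:123259821-123260635) held 2 in place of 1. The 3 regions that set the Omni-ATAC WT oxLDL library above WT untreated lay around the start and past the end of the gene (chr6:123261417-123261793, chr6:123261984-123262286 and chr6:123276386-123276995). The first and the last of them were also in the longer deposited WT untreated list, at the 6.7 and 0.5 percentile, and the deposited lists had 11 peaks in both of these libraries. Equal list length removed these low-ranked peaks from the untreated library, so the first and the last call do not by themselves show a gain with oxLDL. Single regions were not tested. Clec4e (0.35, SE 0.14, limma adjusted p = 0.740) and Clec4n (0.13, SE 0.06) share most of these peaks and are not separate evidence. Values below 0 were led by Clec12b (-0.28, SE 0.15), Clec9a (-0.28, SE 0.15) and Clec12a (-0.16, SE 0.11), whose windows overlap too. Over the 27 Clec genes 13 were above 0, 12 below and 2 at 0, with 492 genes higher and 335 lower at an unadjusted p under 0.05 in all. The deposited lists had 22 genes higher and 3143 lower, a median of -0.24 over all genes, and 3 Clec genes above and 28 below 0. There Clec4e (-0.06) and Clec4n (-0.04) were below 0 and Clec4d was at 0.05. With the top 50% of each list Clec4d was at -0.86, against its direction at equal list length.

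**Figure D5:**
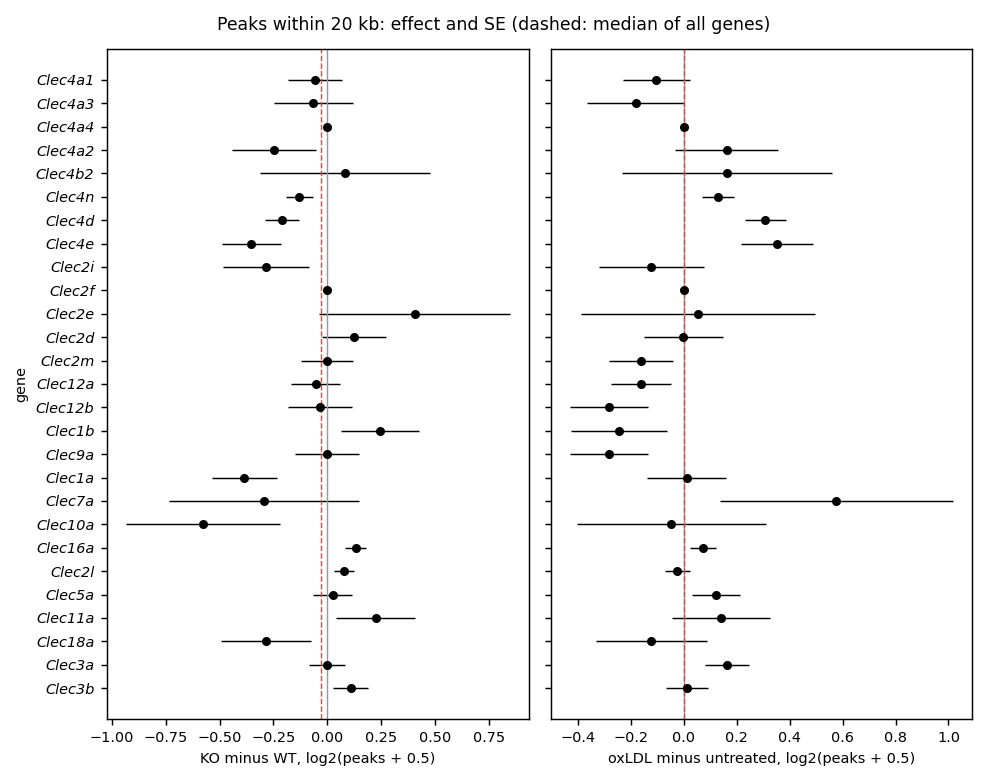
Difference in log2(peaks within 20 kb + 0.5) (horizontal axes) for KO minus WT and for oxLDL minus untreated in the 27 Clec genes tested (vertical axis), where points are limma effects, lines their SE and the dashed line the median of all genes. At equal list length Clec4d and Clec4e are below 0 for genotype and above 0 for oxLDL, with no Clec gene past the adjusted threshold, and Clec4e turns for both in the deposited lists and Clec4d for oxLDL with the top 50% of each list.

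Calls that separated the conditions completely were rare. At equal list length no Clec gene had a boundary peak in all 4 KO and no WT library of the ApoE KO cohort (0.00968% of all 20661 genes did), or in all 4 WT and no KO library (0.092%). None was in all 4 oxLDL and no untreated library (0.0387%), or in all 4 untreated and no oxLDL library (0.0242%). In the Omni-ATAC cohort, with 2 libraries on each side, 0 Clec genes were in KO only (0.174%), 0 in WT only (0.295%) and 0 in untreated only (0.523%). Clec3a, a cartilage lectin, was in oxLDL only (0.61%), at 22.5 in WT and 27.7 in KO, and in the deposited lists a KO untreated peak joined it. Within single treatments of the ApoE KO cohort, deposited lists had Clec4b1, which encodes a receptor of the DCAR type, in both KO untreated and no WT untreated library (0.663%). Its fold enrichment as given by the authors was 4.28 and 2.94, and the KO untreated lists are 44524 and 33267 peaks long, beside 29064 and 39303 in WT. No Clec gene was in WT untreated only (0.165%), KO oxLDL only (1.46%) or WT oxLDL only (0.203%) by that count. A count of 1 gene of 33 is the smallest above 0 that the family can give.

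Genes of the signalling path that these receptors share were called more widely than the receptors. Of 18 listed signalling genes, 18 (100%) had a boundary peak in all 4 Omni-ATAC deposited lists, beside 57.8% of all genes. In all 8 ApoE KO deposited lists 13 (72.2%) had one, beside 39.8% of all genes. Card9 was at 94.8 to 98.2 in Omni-ATAC and 39.0 to 69.2 in ApoE KO libraries, and Syk at 41.2 to 68.8 and 13.6 to 64.2. Tyrobp was at 70.1 to 88.8 and 13.6 to 53.8. Fcer1g had a boundary peak in 10 of 12 libraries at equal list length, without one in KO oxLDL of the ApoE KO cohort, where both libraries lacked it. In the deposited lists it had one in 4 of 4 Omni-ATAC and 8 of 8 ApoE KO lists, KO oxLDL included. By limma 0 of the 18 passed in any of the 6 contrasts, and by boundary percentile 16 of 18 were below 0 for genotype, with a median of -2.69, close to the -2.28 of all genes.

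A further list of 39 genes with a C-type lectin domain and other symbols gave 14 (35.9%, beside 57.8% of all genes) in all 4 Omni-ATAC deposited lists. In all 8 ApoE KO deposited lists it gave 6 (15.4%, beside 39.8%), and none passed limma in any contrast. It includes Olr1, the oxLDL receptor LOX-1, which lies next to Clec7a. Olr1 was at 24.3 in WT untreated, 54.2 in KO untreated, 50.1 in WT oxLDL and 59.9 in KO oxLDL of the Omni-ATAC cohort, and had no boundary peak in the ApoE KO libraries at equal list length. The WT untreated library was the lowest, and limma gave 5.26 (SE 4.52, adjusted p = 0.804) for oxLDL. Mrc1, the mannose receptor of macrophages, was at 30.6 to 60 in Omni-ATAC libraries and had a boundary peak only in the KO untreated libraries of the ApoE KO cohort (35 and 7.3) at equal list length. It had one in 7 of the 8 deposited lists.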

How the data were processed

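Peak lists of 12 ATAC-seq libraries were analysed as deposited by the authors, who called peaks in each library by itself. Per the submitters' processing notes, peaks came from MACS3 (Omni-ATAC cohort) or MACS2 (ApoE KO cohort) on mm10, and Bowtie2 2.3.4.1, SAMtools 1.2, bedtools 2.28.0, Picard, cutadapt, Trim Galore and FastQC were also used. The sources used here do not give their parameters, any shift of reads for the transposase, or the treatment of duplicates and repeats. The authors' lists give a score from the peak caller for each peak. In the ApoE KO lists as deposited, each peak also has a fold enrichment (a ratio to the caller's background) and 2 columns on the -log10 scale, for its p-value and its q-value. The lists hold no reads, so depth is unknown and no counting interval is given. A shallower library gives fewer peaks, which equal list length corrects only in part.

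The score was turned into a percentile within each list. Gene positions came from RefSeq GRCm38.p6. Windows were 1 kb from either end of a gene and 20 kb around it. limma 3.58.1 in R 4.3.3 was fitted to all genes, with 4 genotype-by-treatment groups and cohort as terms, to log2(peaks + 0.5) where the mean was at least 1 peak and to the boundary percentile where at least 3 libraries had a peak. P-values were adjusted by Benjamini-Hochberg. Effects on the log2 scale understate changes of genes with few peaks. Python 3.11.15, numpy 2.4.6, pandas 2.3.3 and matplotlib 3.10.9 did the rest. Members, gene lists, tests and alternatives were chosen with earlier results of these data known. Named genes were a set list of receptors plus, per measure and contrast, the 3 members with the smallest p in each direction. Smarcd1 was added later as the gene that the KO targets. Alternatives were deposited lists, the top 50% of each list, other windows, any overlap in place of the summit, no filter, a pseudocount of 1, 1 cohort alone, a replicate block, and leaving out libraries. Further lists completed the marker check at equal list length. NK and T cell markers (6 genes) had 2 to 3 with a boundary peak in Omni-ATAC and 1 to 2 in ApoE KO libraries. Megakaryocyte markers (4 genes) had 1 to 2 and 1, and endothelial markers (4 genes) had 1 and 1. The deposited Omni-ATAC untreated lists, WT before KO, had 4 and 4 megakaryocyte and 2 and 3 endothelial markers, beside 62.9% and 66.1% of all genes. With oxLDL the deposited lists had 2 and 3 megakaryocyte and 1 and 1 endothelial markers.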

Additional observations from a re-analysis of the deposited data

How the results depend on the processing

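In every alternative run, 0 Clec genes passed limma's adjusted p of 0.05 in any of the 6 contrasts. The counts over all genes did move. With the ApoE KO cohort alone, peaks within 20 kb gave 500 genes for genotype, 450 for oxLDL and 437 for the interaction, of which 459, 430 and 423 had no spread within groups, and boundary percentiles gave 21, 3 and 6. Without the L001 libraries the neighbourhood counts were 238, 245 and 227, with 216 lacking spread in each. That fit has no WT untreated library of the ApoE KO cohort. With the top 50% of each list the neighbourhood counts were 2, 3 and 2. For oxLDL the 50 kb window gave 0 and deposited lists gave 3. Leaving out 1 library gave 0 to 111 for genotype, 0 to 87 for oxLDL and 0 to 79 for the interaction, and 0 to 41, 0 to 3 and 0 to 4 by boundary percentile. The highest of these neighbourhood counts came without the Omni-ATAC KO oxLDL library, and those without any other Omni-ATAC library were 26 to 65.

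Replicate numbers did not pair the libraries (correlations of same-numbered deviations -0.10 to 0.04). A replicate block gave 0 genes in every contrast, oxLDL neighbourhoods included, where the fit without it gave 1.

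The mean number of Clec genes with a boundary peak per ApoE KO library was 8.75, 5.5 with the top 50% of each list and 14 with a 2 kb window. The 1 Clec gene separated by oxLDL in the Omni-ATAC cohort became 0 with deposited lists, the top 50%, any overlap or 2 kb, and 1 to 2 when a library was left out. Untreated-only calls there rose from 0 to 1 with the top 50% or any overlap, and WT-only calls were 0 to 1 when a library was left out.

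No single gene was called, and 22 single-gene values changed sign. Boundary percentiles in deposited lists turned for oxLDL at Clec4n (-0.20), Clec4e (-0.73) and the Clec12b and Clec1a peak (-2.35; leaving out 1 library gave -0.25 to 1.98, the lowest without Omni-ATAC WT untreated). Clec2h turned for genotype in the ApoE KO cohort alone (-3.39). Neighbourhoods in deposited lists turned for genotype at Clec4e (0.014) and Clec1a (0.20), for oxLDL at Clec4e (-0.055) and Clec4n (-0.04), and for the interaction at Clec5a (-0.17) and Clec3b (0.63). With the top 50% they turned at Clec16a (-0.16) and Clec1a (0.12) for genotype, Clec4b2 (-0.10) for the interaction, and Clec4d (-0.86), Clec4e (-0.47) and Clec4n (-0.75) for oxLDL. With 50 kb they turned at Clec2l (-0.011) and Clec1b (-0.017) for genotype and Clec1a (0.016) for the interaction. The cause was not tested. Deposited lists differ in length by up to 1.82 times within the ApoE KO cohort, and the unknown depth limits calls of weak peaks.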
